A study of Mus musculus with 2 samples.

Results

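The Gimap genes encode GTPases of immunity-associated proteins, a family of small GTP-binding proteins that lie mostly on the membranes of lymphocyte organelles. All 8 members that the deposited gene lists name by symbol (Gimap1, Gimap3, Gimap4, Gimap5, Gimap6, Gimap7, Gimap8 and Gimap9) were taken, out of 22620 genes listed in both libraries. They were chosen by name, with their levels in T, B, NK, endothelial and cancer cells and their lymph node to primary tumour difference in T cells already known, so all those levels are given as a description with no test. The data were 2 single-cell 3′ RNA libraries, from the primary tumours and from the paired lymph nodes of 6 female C57BL/6J mice carrying EO771-HEVM3 cells. EO771 is a mouse mammary carcinoma line, and HEVM3 is its derivative after 3 rounds of selection in vivo for spread through high endothelial venules, the vessels by which lymphocytes enter lymph nodes. The mice were 5 to 6 weeks old when obtained, and both groups bore the same tumour cells, so no library came from a tumour-free mouse. Tissue from the 6 mice was pooled into 1 library per tissue, which leaves no replicates: the intervals below cover counting error only, and PCR and mouse-to-mouse error are not in them. Tumours were digested for longer and with other enzymes than lymph nodes, so tissue, digestion and library cannot be told apart in any difference between the libraries.

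After filtering, 8756 primary tumour cells and 9689 lymph node cells remained, with a median of 9383 and 2324 UMIs (unique molecular identifiers, counted mRNA molecules) per cell. They held 3565 and 29849 Gimap UMIs. The libraries shared 47 cell barcodes, and leaving out those cells moved none of the values recomputed without them beyond counting error. Among kept cells, 579 in the primary tumour against 3678 in the lymph node were T cells, all 7 T cell markers being detected in both, and 4594 lymph node cells were B cells. NK cells (29 and 76), endothelial cells (51 and 194) and cancer cells (6126 and 621) were found in both libraries, whereas only 8 primary tumour cells were B cells.

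GIMAP proteins are best known for keeping lymphocytes alive outside the thymus and bone marrow. Mice without Gimap5 lose peripheral T cells, and Gimap1 is needed for mature T and B cells. Gimap3, a close relative of Gimap5, and Gimap5 bind proteins of the Bcl-2 family, Gimap4 has been tied to the death of T cells, and Gimap6 binds the autophagy protein Gabarapl2. Gimap8 is the longest protein of the family, with several GTPase domains, and Gimap7 forms dimers that speed GTP hydrolysis. What Gimap9 does is less well known.

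The members lie side by side on chromosome 6 (GRCm38, GENCODE annotation), from the start of Gimap8 at 48647234 to the end of Gimap3 at 48770851, a block of 123.618 kb in which 6 members run on the plus strand and 2, Gimap6 and Gimap3, on the minus strand. Gimap4 spans 48684549 to 48692060, Gimap6 48701582 to 48708225, and Gimap7 48718621 to 48724636, so these 3 neighbours lie next to each other in that order. Transcripts of Gimap3 and Gimap5 were 97.917% identical over 720 bases, and those of Gimap7 and Gimap9 71.863% over 526 bases. A 3′ library reads from the end of a transcript. In the last 500 bases of each member's longest protein-coding transcript, no stretch of 50 bases was shared with another member. Other annotated transcripts of the members were not compared. A read-through gene, Gm28053, overlapped 81 bases of the Gimap7 transcript but none of its last 500 bases, and had 5 primary tumour and 15 lymph node T cell UMIs.

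Because Gimap4 and Gimap7 on the one hand and Gimap6 on the other differed in opposite directions between the libraries, their promoter windows (RefSeq, GRCm38.p6, 250 bases before to 50 after the annotated start, 5′ to 3′ on the gene's own strand) are shown. Capitals mark every match, on either strand, to one of the short motifs searched. The motif of ETS factors was searched as GGAAGT, while for RUNX factors the letters searched were TGTGGT, and for TCF factors, which follow Wnt signals, they were CTTTGA. For KLF factors the letters searched were CACCC, and for the E-box they were CAGGTG. The core promoter motif of the TBP protein, called the TATA box, was searched as TATAAA, and the motif of the blood cell factors of the GATA group was searched as AGATAA.
Gimap4, plus strand, chr6:48684328-48684627: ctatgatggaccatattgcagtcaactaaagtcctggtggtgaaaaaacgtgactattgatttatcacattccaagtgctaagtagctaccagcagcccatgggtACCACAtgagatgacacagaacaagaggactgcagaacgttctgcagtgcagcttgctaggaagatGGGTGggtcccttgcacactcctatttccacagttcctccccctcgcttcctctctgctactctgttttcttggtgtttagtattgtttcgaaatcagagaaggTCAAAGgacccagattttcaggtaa
Gimap7, plus strand, chr6:48718371-48718670: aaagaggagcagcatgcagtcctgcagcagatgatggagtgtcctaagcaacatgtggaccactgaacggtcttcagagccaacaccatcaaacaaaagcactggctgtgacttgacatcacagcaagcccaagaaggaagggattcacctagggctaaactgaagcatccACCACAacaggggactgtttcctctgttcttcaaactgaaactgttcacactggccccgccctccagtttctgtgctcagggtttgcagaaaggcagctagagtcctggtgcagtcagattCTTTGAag
Gimap6, minus strand, chr6:48708195-48708494: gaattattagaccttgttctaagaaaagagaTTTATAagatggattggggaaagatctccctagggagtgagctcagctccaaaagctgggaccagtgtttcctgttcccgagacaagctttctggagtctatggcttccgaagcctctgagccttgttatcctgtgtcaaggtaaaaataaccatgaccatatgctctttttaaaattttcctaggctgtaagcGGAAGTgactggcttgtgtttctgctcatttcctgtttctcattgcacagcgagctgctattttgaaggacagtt
The windows of Gimap4 and Gimap7 both held the RUNX and the TCF letters and no ETS letters, and that of Gimap4 also held KLF letters. That of Gimap6 held the ETS and TATA box letters and neither RUNX nor TCF. Its TATA box letters lay on the strand opposite to the gene, at -219 from the start. Of the members whose windows are not shown, Gimap9 held ETS, KLF and E-box letters, Gimap5 ETS and KLF letters, and Gimap1 ETS and RUNX letters. Gimap3 and Gimap8 held KLF letters only. No link between these letters and the T cell differences was tested. Over the first window of each of the 8 members, ETS letters were in 4, RUNX in 3, TCF in 2, KLF in 5, the E-box in 1, the TATA box in 1 and the GATA box in 0. Of all 32851 windows in the table, 23.8% held the ETS, 16.8% the RUNX, 16.0% the TCF, 57.5% the KLF, 20.2% the E-box, 13.6% the TATA box and 11.2% the GATA box letters. These matches describe the letters and are no evidence that a factor binds there.

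Summed over the members, levels were highest in T and NK cells and lower in B and endothelial cells. Single members could depart from this. In the primary tumour Gimap6 stood at 235.7 CPM in endothelial cells, near its 250.1 CPM in T cells. Levels are given as CPM (counts per 1e6 UMIs, from the pooled UMIs of a class), with the exact Poisson 95% interval in parentheses. A UMI marks the 3′ end of 1 molecule, so levels of different members are set side by side without dividing by length. The 8 genes together reached 1787 CPM (1713 to 1863) in primary tumour T cells and 1661 CPM (1639 to 1684) in lymph node T cells. NK cells held 1026 CPM (817.4 to 1272) in the primary tumour and 1727 CPM (1565 to 1902) in the lymph node. The order of T and NK cells was thus not resolved in the lymph node, where the intervals overlap, while in the primary tumour T cells stood above the 29 NK cells.
Lymph node B cells came next with 643.2 CPM (627.1 to 659.5), about the level of primary tumour endothelial cells at 637.7 CPM (562.1 to 720.6), from which their interval does not separate them. Lymph node plasma cells held 267.1 CPM (243.1 to 292.9) and lymph node endothelial cells 220.2 CPM (205.6 to 235.6). The 51 lymph node macrophages or monocytes held 176.0 CPM (125.2 to 240.6) from 39 UMIs. Fibroblasts of the primary tumour held 6.91 CPM (3.68 to 11.8) from 13 UMIs, and primary tumour macrophages or monocytes 11.8 CPM (8.63 to 15.8). Cancer cells held 9.06 CPM (8.48 to 9.68) in the primary tumour and 29.8 CPM (27.5 to 32.3) in the lymph node. In droplet data free RNA enters every cell, and the cancer cell CPM was below that of T, NK, B and endothelial cells in the libraries where each was measured. It is not a clean background, since cancer cells were much deeper. Per cell, lymph node cancer cells held a mean of 0.98 Gimap UMIs at a median of 34808 UMIs, against 1.32 in B cells at 1797, 5.73 in T cells at 2988 and 4.32 in endothelial cells at 15851. Primary tumour cancer cells held 0.14 Gimap UMIs per cell at 14058 UMIs, against 3.80 in T cells at 1556. T cells carried 61.7% of the kept Gimap UMIs of the primary tumour and 70.6% of those of the lymph node, where B cells carried 20.4%.

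**Figure D1:**
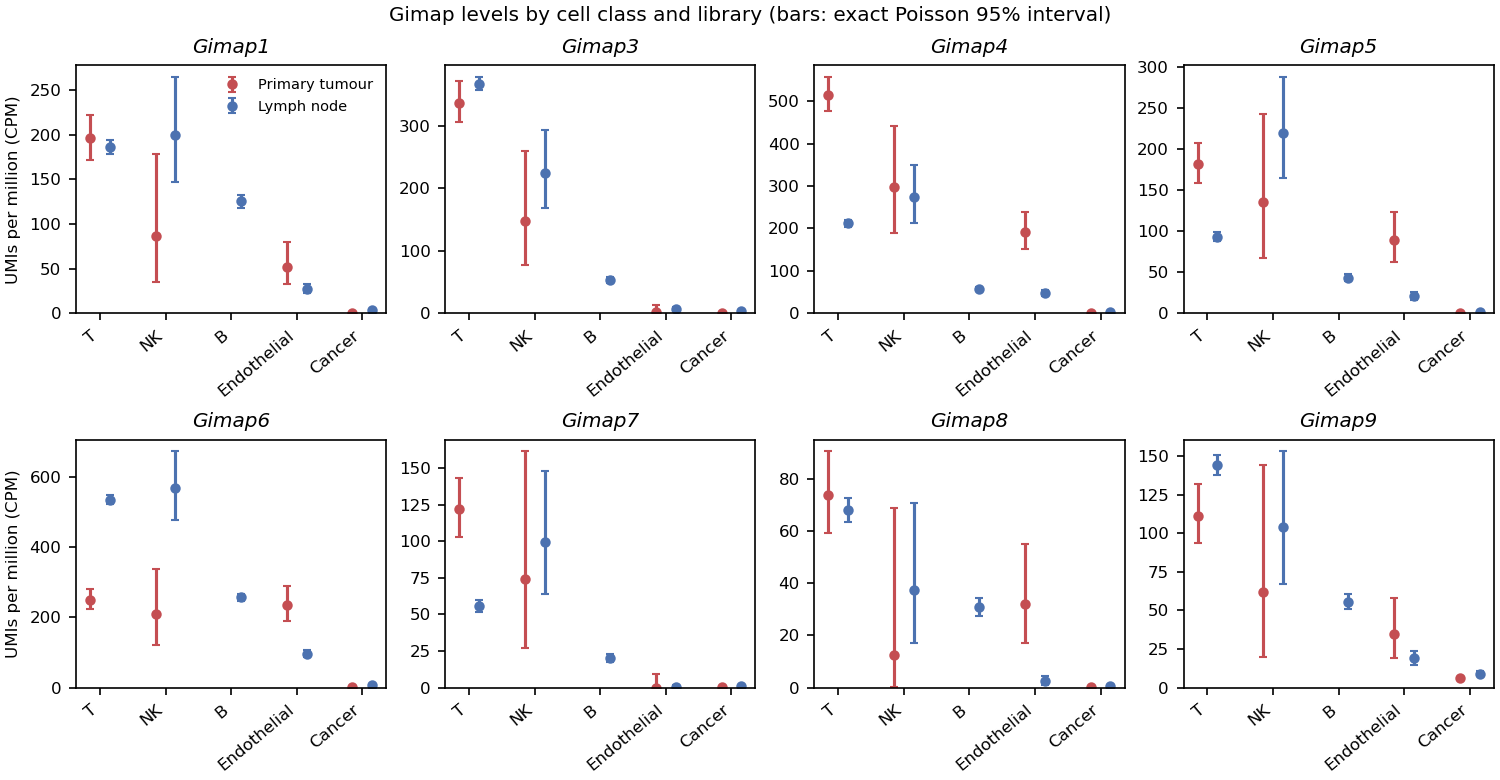
Level of each Gimap gene (y axis, CPM, each panel on its own linear scale from 0) in T, NK, B, endothelial and cancer cells of the primary tumour (red) and lymph node (blue), with exact Poisson 95% intervals. Gimap4 is higher in primary tumour T cells (514.9) than in lymph node T cells (212.5), Gimap6 is the reverse (250.1 and 534.6), and Gimap3 and Gimap7 lie near 0 in endothelial cells.

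Of the members that have been tied to lymphocyte survival, Gimap1 and Gimap3 were about level between the T cells of both libraries, while Gimap5 was lower in the lymph node. Gimap1 had 241 UMIs in primary tumour T cells, 195.7 CPM (171.8 to 222.0), and 2360 in lymph node T cells, 186.1 CPM (178.7 to 193.8). Gimap3 stood at 337.0 CPM (305.4 to 371.1) and 367.0 CPM (356.6 to 377.7). Their log2 ratios (lymph node CPM divided by that of the primary tumour), -0.08 for Gimap1 (-0.26 to 0.12) and 0.12 for Gimap3 (-0.02 to 0.27), both had intervals that include 0. Gimap5, which shares long identical stretches with Gimap3, stood at 181.9 CPM (158.9 to 207.4) in the primary tumour and 93.1 CPM (87.8 to 98.5) in the lymph node, a log2 ratio of -0.97 (-1.17 to -0.75). The intervals of both libraries do not overlap for Gimap5, and the difference is just under 2-fold.

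Gimap4, the member tied to T cell death, and Gimap7 were more than 2-fold lower in lymph node T cells. Gimap4 had 634 UMIs or 514.9 CPM (475.6 to 556.5) in primary tumour T cells, where it was the most abundant member, and 2694 UMIs or 212.5 CPM (204.5 to 220.6) in lymph node T cells, where it ranked after Gimap6 and Gimap3. The log2 ratio was -1.28 (-1.40 to -1.15). Gimap7 stood at 121.8 CPM (103.1 to 142.9) and 55.7 CPM (51.6 to 59.9), a log2 ratio of -1.13 (-1.39 to -0.87). Neither value rested on a few cells, since the cell with most UMIs held 10 of the 634 Gimap4 UMIs and 4 of the 150 Gimap7 UMIs in the primary tumour.

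Gimap6, the partner of the autophagy protein Gabarapl2, went the other way. It had 308 UMIs or 250.1 CPM (223.0 to 279.7) in primary tumour T cells and 6779 UMIs or 534.6 CPM (522.0 to 547.5) in lymph node T cells, where it was the most abundant member. Its log2 ratio was 1.09 (0.93 to 1.27), a 2.13-fold higher level in the lymph node. Gimap9 was also higher there, at 144.1 CPM (137.6 to 150.8) against 111.3 CPM (93.4 to 131.5), with a log2 ratio of 0.37 (0.12 to 0.63). Gimap8 showed little difference, 73.9 CPM (59.5 to 90.7) in the primary tumour and 68.2 CPM (63.7 to 72.9) in the lymph node, with a log2 ratio of -0.12 (-0.43 to 0.21).

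These differences nearly cancelled in the sum, whose log2 ratio was -0.11 (-0.17 to -0.04). Over the 7482 genes with a mean of at least 10 CPM in T cells the median log2 ratio was -0.43, so T cell values below 0 were the rule, and all 8 members passed that filter. Of these 7482 genes, 4.61% were at least 2-fold higher and 26.0% at least 2-fold lower in lymph node T cells, beside 1 member (Gimap6) and 2 members (Gimap4 and Gimap7). The members' count in the lower direction is close to that background, and nothing is read from either count. Dividing by the UMIs of Cd3d, Cd3e, Cd3g and Trac in place of all UMIs (T cell receptor scaling) moved the median of all genes to -0.05. With it the sum moved to 0.28, Gimap4 to -0.90, Gimap7 to -0.75 and Gimap6 to 1.47. Of these scaling genes, Cd3e (-0.98), Trac (-0.67) and Cd3g (-0.46) had log2 ratios below 0, and Cd3d had 0.20. The receptor genes Trbc1 (0.98) and Trbc2 (0.38) lay above 0 and were not used. The shift thus depends on which receptor genes are taken, and other choices were not tried. Under the T cell receptor scaling Gimap1 and Gimap8 turned positive at 0.31 and 0.26, and Gimap3 rose to 0.50. Gimap4, Gimap5, Gimap6, Gimap7 and Gimap9 held their direction.

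**Figure D2:**
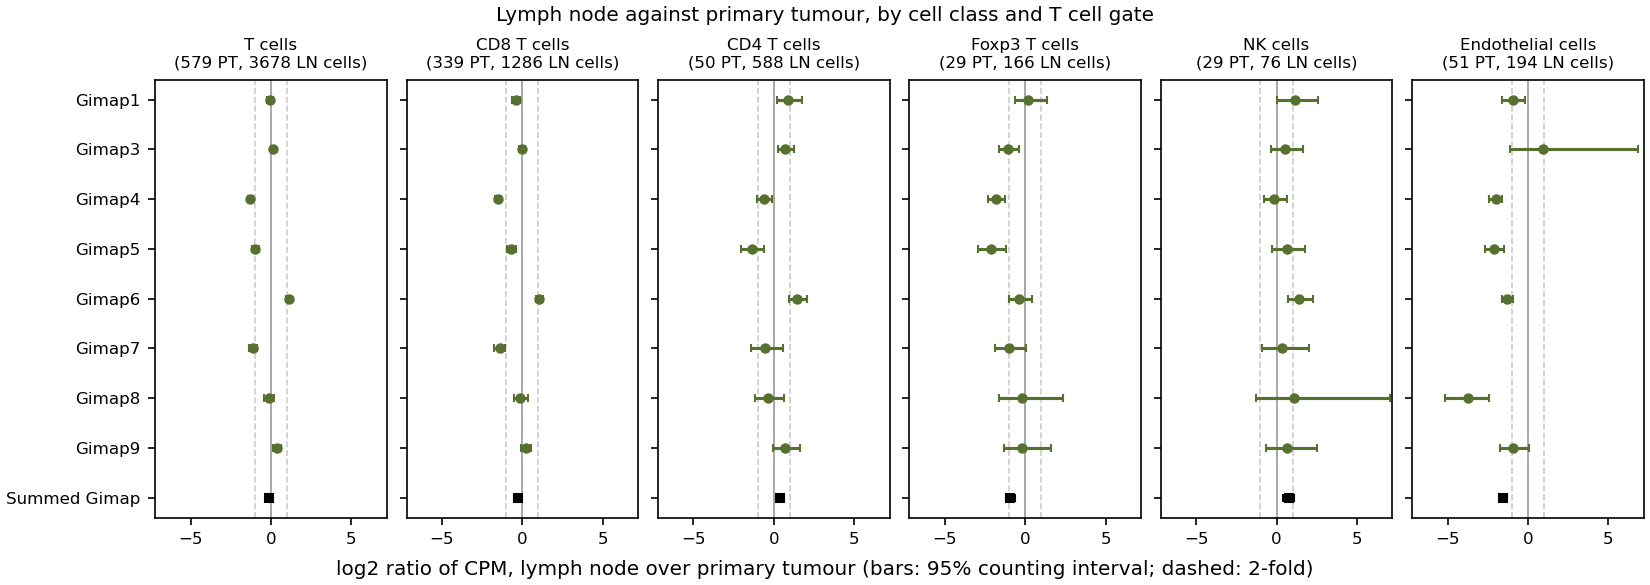
Lymph node CPM divided by primary tumour CPM, as log2 (x axis), of each Gimap gene and of their sum (y axis) in T cells, 3 T cell gates, NK cells and endothelial cells, with 95% counting intervals, dashed lines at 2-fold, and genes under 10 UMIs in both libraries together left out. Gimap6 lies right of 0 in all T cells (1.09), CD8 T cells (1.04), CD4 T cells (1.43) and NK cells (1.40) but left of 0 in endothelial cells (-1.30), and in Foxp3 T cells its interval spans 0, while Gimap4 lies left of 0 in all 6 panels, in NK cells with an interval that spans 0.

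Measures other than the Gimap genes also differed between the T cells of both libraries, and their part in the result was not tested. The median T cell had 1556 UMIs in the primary tumour against 2988 in the lymph node, and 3.58% and 1.99% of its UMIs were mitochondrial. The 7 cancer cell markers, all detected in both, summed to 340.3 CPM in primary tumour and 74.5 CPM in lymph node T cells. The 11 macrophage or monocyte markers summed to 998.0 and 375.7 CPM, with 10 and 9 detected, and 5 erythroid genes to 2410.2 and 462.9 CPM. Of 7 B cell markers, 1 was detected in primary tumour T cells at a summed 2.44 CPM and all 7 in lymph node T cells at 36.8 CPM. Endothelial markers, of which Cdh5, Cldn5, Emcn, Tie1 and Kdr were at 0 in primary tumour T cells, summed to 30.9 and 56.7 CPM, and those of NK cells to 647.2 and 36.2 CPM. With T cells taken instead as cells with at least 2 T cell marker UMIs and no UMI of B, cancer, endothelial, myeloid or fibroblast markers, 119 and 1368 cells remained, and the log2 ratios were 1.09 for Gimap6, -0.85 for Gimap4 and -1.34 for Gimap7.

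The make-up of the Gimap UMIs is given as well, since a ratio between members of 1 library does not depend on how that library was scaled. Gimap4 and Gimap6 were paired after their opposite differences were seen, so their shares describe those differences again and add no support. Their shares also differ where Gimap4 alone differs. Gimap4 made up 28.8% of the Gimap UMIs in primary tumour T cells (Clopper-Pearson 95% interval 26.9 to 30.8) and 12.8% in lymph node T cells (12.3 to 13.2). Gimap6 made up 14.0% (12.6 to 15.5) and 32.2% (31.6 to 32.8). Gimap1 hardly differed, at 10.95% and 11.2%, nor did Gimap8, at 4.14% and 4.11%. Gimap3 gave 18.9% and 22.1%, Gimap5 10.2% and 5.60%, Gimap7 6.82% and 3.35%, and Gimap9 6.23% and 8.67%. Taking Gimap4 and Gimap6 alone, Gimap4 gave 67.3% of their UMIs in primary tumour T cells (64.2 to 70.3) and 28.4% in lymph node T cells (27.5 to 29.4).

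**Figure D3:**
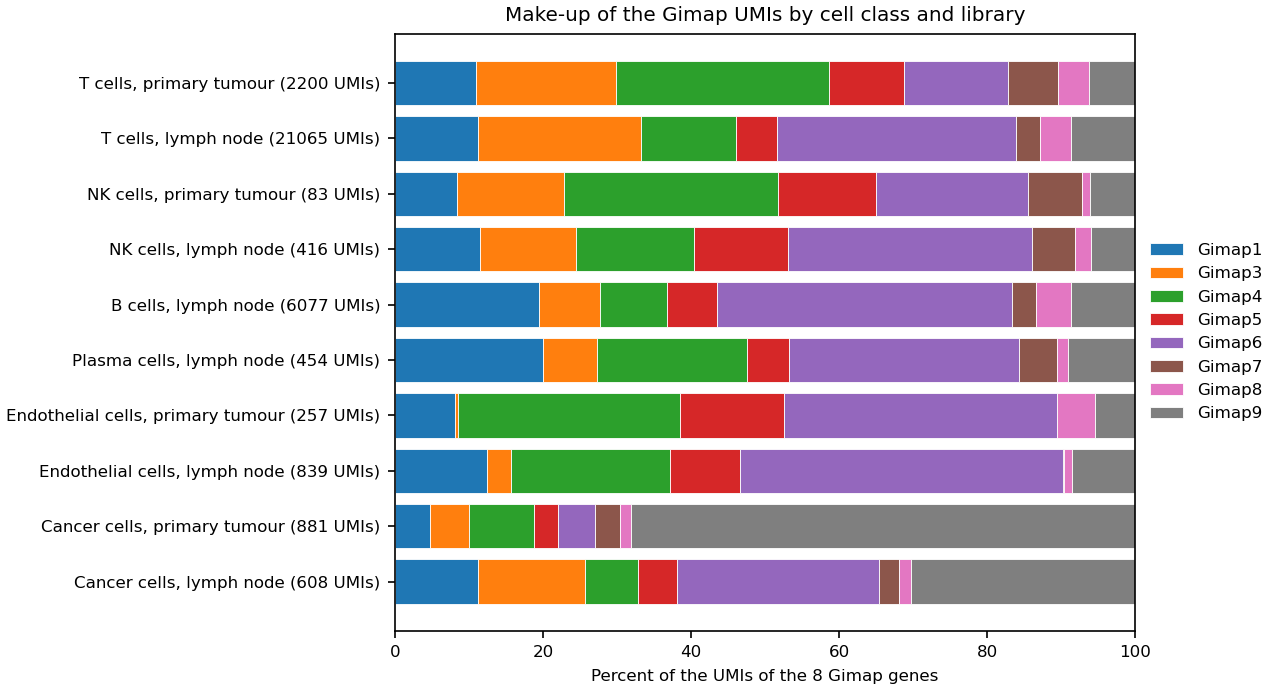
Share of each Gimap gene in the UMIs of all 8 Gimap genes (x axis, percent) by cell class and library (y axis, with the number of UMIs). Gimap4 (green) is the largest share in primary tumour T cells at 28.8% and Gimap6 (purple) in lymph node T cells at 32.2%, while Gimap9 (grey) takes 68.1% in primary tumour cancer cells.

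The tissues hold different T cells, so the members were compared within gates on marker UMIs. CD8 T cells (a Cd8a or Cd8b1 UMI, no Cd4 or Foxp3 UMI) numbered 339 in the primary tumour against 1286 in the lymph node. In them Gimap4 stood at 519.0 CPM against 180.8 CPM, Gimap7 at 127.4 against 48.1 CPM, and Gimap6 at 226.2 against 464.6 CPM. Their log2 ratios were -1.52 (-1.69 to -1.35), -1.41 (-1.74 to -1.07) and 1.04 (0.83 to 1.26). The sum was 1731 CPM in the primary tumour and 1438 CPM in the lymph node, a log2 ratio of -0.27 (-0.35 to -0.19) that turned to 0.34 with the T cell receptor scaling. Over 7369 genes in CD8 T cells, 5.62% were at least 2-fold higher and 30.0% at least 2-fold lower in the lymph node, with a median of -0.52, beside 1 and 2 members.

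In CD4 T cells outside the Foxp3 gate (50 and 588 cells) Gimap6 stood at 222.5 CPM in the primary tumour and 610.0 CPM in the lymph node, a log2 ratio of 1.43 (0.92 to 2.04). Gimap4 went from 360.6 CPM to 239.2 CPM, a log2 ratio of -0.61 (-1.03 to -0.13), on 47 primary tumour UMIs. The summed log2 ratio was 0.41 (0.20 to 0.64), but 0.03 as the mean of single-cell CPM. In T cells with a UMI of Foxp3, the factor of regulatory T cells (29 and 166 cells), Gimap4 stood at 717.0 CPM in the primary tumour and 205.2 CPM in the lymph node, a log2 ratio of -1.82 (-2.32 to -1.26). Gimap6 in that gate stood at 358.5 and 287.0 CPM, with an interval that includes 0 (-0.995 to 0.44), and the sum at 2434 and 1295 CPM. The share of Gimap4 in the Gimap4 and Gimap6 UMIs was 66.7% (52.9 to 78.6) and 41.7% (36.9 to 46.6) in the Foxp3 gate. Between these genes, only Gimap4 had a ratio interval there that excludes 0.

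**Figure D4:**
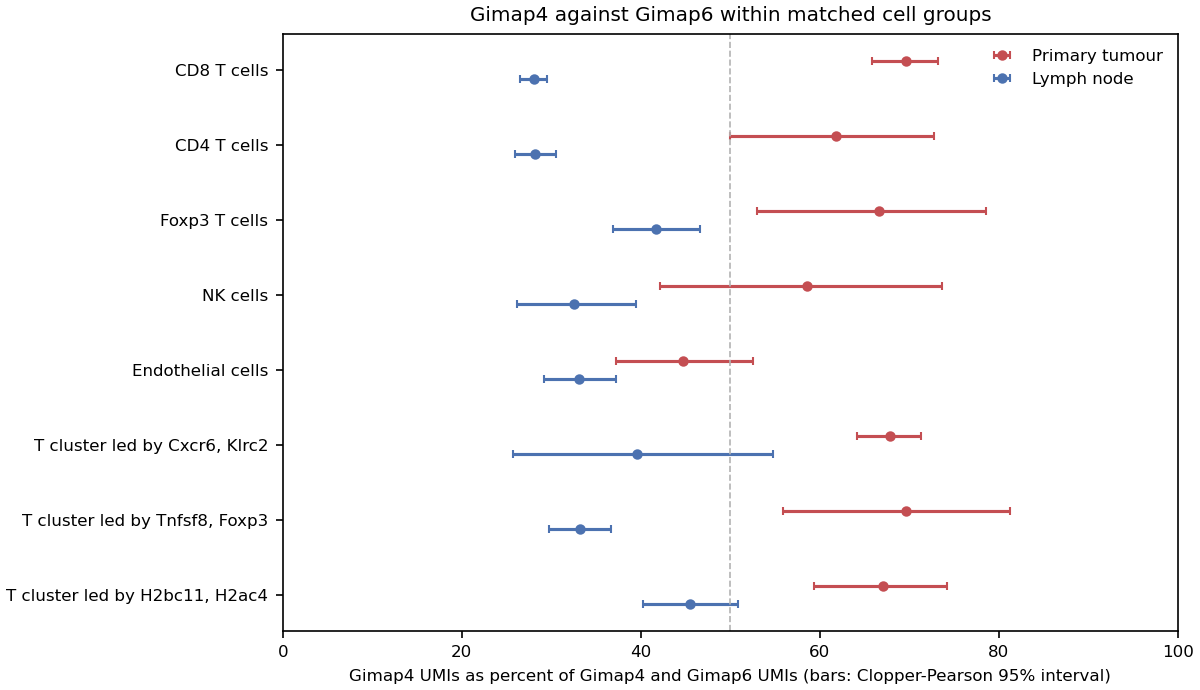
Gimap4 UMIs as a percent of Gimap4 and Gimap6 UMIs (x axis) in matched groups of primary tumour (red) and lymph node (blue) cells, with Clopper-Pearson 95% intervals and a dashed line at 50%. The T cell gates and clusters shown lie at 61.8% to 69.6% in the primary tumour and at 28.0% to 45.5% in the lymph node, NK cells stand at 58.5% and 32.5%, and endothelial cells at 44.8% and 33.1% with intervals that just touch.

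T cell clusters, made without the Gimap genes, spread more widely in the summed level than the libraries did. The highest was a lymph node cluster of 1148 cells led by Itm2a, Lef1 and Dusp10 (Gimap3 was also among its 10 leading genes), with more Cd4 (160.8 CPM) than Cd8a UMIs (1.73 CPM), at 2559 CPM, in which Gimap6 reached 867.4 CPM and Gimap3 624.3 CPM. A lymph node cluster of 1634 cells led by Bend4, Sidt1 and Myb, with Cd8b1 at 299.9 CPM, held 1542 CPM. The lowest was a lymph node cluster of 97 cells led by Scart2 and Trgc1, with the gamma delta receptor gene Trdc at 372.9 CPM, which held 332.1 CPM from 106 UMIs. In that cluster Gimap7 had 0 UMIs and Gimap6 stood at 62.7 CPM, so it lay below lymph node B cells.
Dividing cells, led by histone genes and with Mki67 at 719.7 and 445.7 CPM, held 1262 CPM in the primary tumour and 931.0 CPM in the lymph node, less than any other T cell cluster of at least 20 cells in the primary tumour and more than the Scart2 cluster alone in the lymph node. Among the 3 clusters with at least 20 cells in both libraries, Gimap4 was lower in the lymph node in each. The log2 ratios were -1.09 (-1.87 to -0.47) in the cluster led by Cxcr6 and Klrc2, -1.86 (-2.33 to -1.31) in the one led by Tnfsf8 and Foxp3, and -0.97 (-1.33 to -0.61) in dividing cells. Gimap6 gave 0.58, 0.33 and 0.31, each with an interval that includes 0, so the higher Gimap6 seen over all T cells was not resolved within these clusters. Gimap7 was at 125.3 CPM in 459 primary tumour cells and 290.5 CPM in 24 lymph node cells of the Cxcr6 cluster, on 21 lymph node UMIs, against its direction in all T cells.

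**Figure D5:**
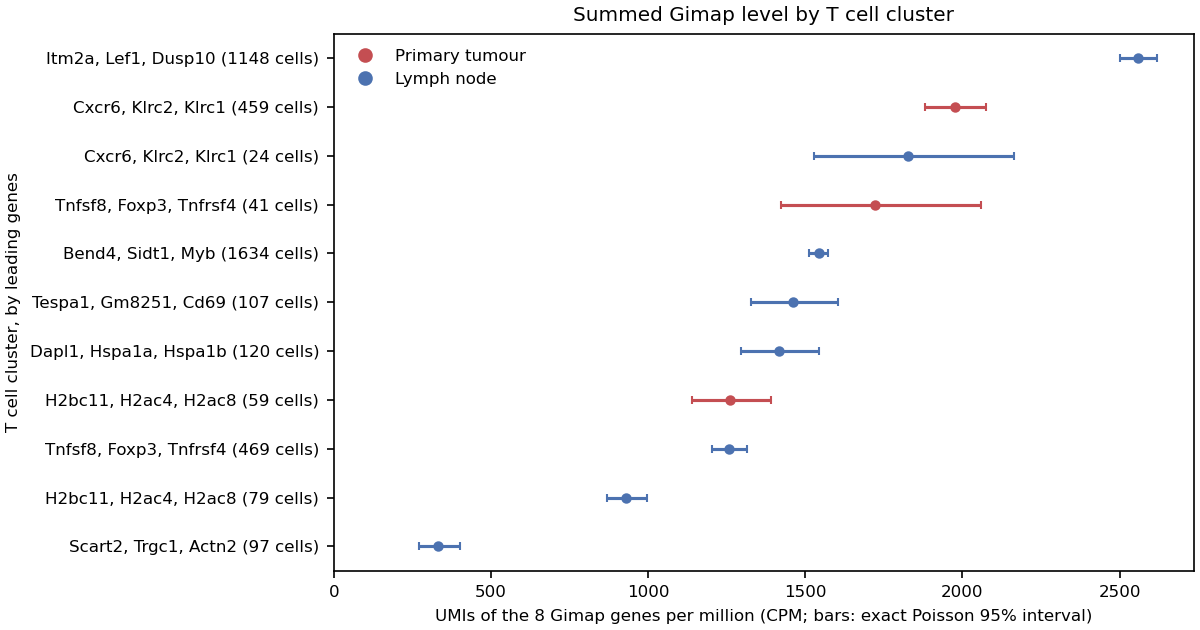
Summed level of the 8 Gimap genes (x axis, CPM, from 0) in each T cell cluster with at least 20 cells in a library (y axis, named by leading genes, with the number of cells), primary tumour in red and lymph node in blue, with exact Poisson 95% intervals. Levels run from 332.1 in the cluster led by Scart2 to 2559 in that led by Itm2a.

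Cell by cell, most T cells showed Gimap mRNA in both tissues. A UMI of any member was found in 88.8% of primary tumour and 94.3% of lymph node T cells, but lymph node T cells were deeper. With each cell thinned to 1000 UMIs, and 130 and 23 shallower cells left out, the expected shares were 79.5% (75.5 to 83.2) and 76.0% (74.6 to 77.4), with Clopper-Pearson intervals. The same share was 0.867% in primary tumour and 2.98% in lymph node cancer cells, whose median depth was 14058 and 34808 UMIs. For Gimap4 the thinned share was 41.5% in the primary tumour against 19.7% in the lymph node, and for Gimap6 it was 24.2% and 41.7%. Lymph node B cells came to 45.8% for any member and 22.8% for Gimap6. A T cell showed a median of 2 members in the primary tumour against 3 in the lymph node before thinning, and 49.9% and 65.9% of T cells showed at least 3.

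B cells of the lymph node had another make-up than T cells of the same library, which shared its digestion and sequencing. Gimap6 led at 256.9 CPM (246.7 to 267.3) and Gimap1, the member that mature B cells need, followed at 125.3 CPM (118.3 to 132.7). Together with the other members they gave 643.2 CPM, 2.58-fold below the T cells. Gimap1 differed least from T cells (1.48-fold lower in B cells) and Gimap3 most, at 53.0 CPM in B and 367.0 CPM in T cells, or 6.92-fold. In plasma cells, which descend from B cells, Gimap6 stood at 83.0 CPM, Gimap4 at 54.1 CPM and Gimap1 at 53.5 CPM.

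NK cells carried all 8 members in both libraries, Gimap8 with 1 UMI in the primary tumour. In the lymph node Gimap6 led with 568.9 CPM (477.6 to 672.5), and in the primary tumour Gimap4 with 296.7 CPM (190.1 to 441.5) on 24 UMIs. Gimap6 was higher in the lymph node, with a log2 ratio of 1.40 (0.70 to 2.26), whereas the interval for Gimap4 included 0 (-0.81 to 0.62). The summed log2 ratio was 0.74 (0.41 to 1.11). Gimap5 in lymph node NK cells, at 220.1 CPM (164.8 to 287.9), stood above lymph node T cells at 93.1 CPM. The 7 T cell markers summed to 185.5 CPM in primary tumour NK cells, with Cd3d and Cd3e at 0, and to 1188 CPM in lymph node NK cells, where all 7 were detected, and their part in these levels was not tested.

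Endothelial cells expressed a subset of the family. In 51 primary tumour cells Gimap6 stood at 235.7 CPM (190.7 to 288.2), Gimap4 at 191.1 (150.8 to 238.8), Gimap5 at 89.3 (62.6 to 123.7), Gimap1 at 52.1 (32.3 to 79.7), Gimap9 at 34.7 (19.0 to 58.3) and Gimap8 at 32.3 CPM (17.2 to 55.2). Gimap3 had 1 UMI and Gimap7 had 0, which allows up to 7.44 CPM. In 194 lymph node cells the same 2 genes were again low, Gimap3 with 27 UMIs at 7.09 CPM and Gimap7 with 1 UMI. T cell markers summed to 12.4 CPM in primary tumour endothelial cells, with Cd3d, Cd3g, Trac and Cd5 at 0, and to 58.8 CPM in lymph node endothelial cells.
Gimap1, Gimap4, Gimap5, Gimap6 and Gimap8 were lower in lymph node endothelial cells by intervals that exclude 0, while those of Gimap3 and Gimap9 included 0. Gimap7 had too few UMIs to compare. The share of all genes that differ between these endothelial groups is not given here, so nothing is read from how many members were lower. Gimap4 stood there at 47.5 CPM, a log2 ratio of -2.01 (-2.40 to -1.60), Gimap5 at 20.7 CPM (-2.12, interval -2.69 to -1.50) and Gimap6 at 96.1 CPM (-1.30, interval -1.62 to -0.95). Gimap8 stood at 2.36 CPM from 9 UMIs, a log2 ratio of -3.75 (-5.18 to -2.43). The summed log2 ratio was -1.54 (-1.74 to -1.33). These groups of endothelial cells are not alike. The 8 endothelial markers summed to 4831 CPM in the primary tumour and 1229 CPM in the lymph node, Cldn5 was found in 76.5% and 1.03% of cells, Cdh5 in 98.0% and 54.1% and Pecam1 in 86.3% and 62.9%, and median depth was 6230 and 15851 UMIs. Cancer cell markers summed to 928.0 and 121.8 CPM in them and the 4 heat shock genes to 1466 and 197.4 CPM. No Gimap UMI was found in 3.92% and 34.5% of the cells. The lymph node group may thus hold cells that are not endothelial, and its Gimap ratios to the primary tumour are between the named groups, not between endothelial cells of known purity. The part of these differences in the Gimap levels was not tested.
High endothelial cells, taken as the 47 lymph node cells with UMIs of at least 2 of Glycam1, Chst4 and Fut7, genes of high endothelial venules, held 155.6 CPM of the 8 genes against 255.6 CPM in the other 147. Median depth was 29965 UMIs in the 47 cells and 9826 in the 147, and its part was not tested. The 147 may also include cells that are not endothelial. Gimap4 differed most, at 17.8 against 63.8 CPM, a log2 ratio of -1.82 (-2.53 to -1.22), and Gimap9 stood level at 18.5 and 19.1 CPM. Without those 47 cells the summed lymph node to primary tumour log2 ratio was -1.32. The primary tumour endothelial level rested on few cells: it was 891.8 CPM with no upper limit on detected genes, 932.9 CPM as the mean of single-cell CPM and 547.9 CPM without cells with at least 5 UMIs of Hspa1a and Hspa1b.

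Cancer cells held little Gimap mRNA, but not in the proportions of T cells. In the primary tumour Gimap9 had 600 UMIs in 6126 cancer cells, 6.17 CPM (5.69 to 6.69), while the next member, Gimap4, had 78 UMIs at 0.803 CPM. Gimap9 thus made up 68.1% of their Gimap UMIs (64.9 to 71.2), against 6.23% in T cells of the same library. Of all kept Gimap9 UMIs of the primary tumour, 77.3% were in cancer cells. But these cells held 97188345 UMIs of all genes, against 1231408 in T cells, and Gimap9 stood far higher in T cells, at 111.3 CPM. In cancer cells Gimap9 was seen in 8.88% of cells and never above 4 UMIs in a cell, and the thinned share of 0.604% is a low level. Each of the 6 primary tumour cancer clusters of at least 20 cells held Gimap9 above the other 7 members together, from 59.2% to 82.3% of the Gimap UMIs, at 3.60 to 8.80 CPM. Macrophages or monocytes of the same library had 3 Gimap9 UMIs, 0.789 CPM (0.163 to 2.31).
In the 621 lymph node cancer cells Gimap9 had 184 UMIs, 9.03 CPM (7.77 to 10.4), or 30.3% of the Gimap UMIs (26.6 to 34.1), beside 8.67% in lymph node T cells. Gimap6 made up 27.3% there and Gimap4 7.24%, and the Gimap4 share of both was 21.0% in lymph node and 63.9% in primary tumour cancer cells, on the same sides as in the T cells of each library. T cell markers summed to 27.1 CPM in primary tumour and 80.9 CPM in lymph node cancer cells, and their part in these values was not tested.

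Other genes of T cells were followed in lists chosen with earlier results known, and are given beside the members with no test. Over all 7482 genes that passed the filter, 4.61% were at least 2-fold higher and 26.0% at least 2-fold lower in lymph node T cells. Nothing is read from the counts of the T cell identity, GIMAP partner and heat shock lists. Of 11 genes of naive and recirculating T cells, 8 were at least 2-fold higher in lymph node T cells and 0 lower, with a median log2 ratio of 1.71. Satb1 stood at 360.6 CPM in the primary tumour and 1182 CPM in the lymph node, Ets1 at 719.5 and 711.0 CPM, Ccr7 at 46.3 and 691.1 CPM, and Klf2 at 112.1 and 562.5 CPM. Of the 11 activation and residency genes that passed the filter, 7 were at least 2-fold lower in the lymph node and 0 higher, with a median of -2.70, among them Ccl5 (2991 and 734.2 CPM) and Nkg7 (1065 and 164.0 CPM). Cd69 (150.2 and 197.9 CPM) and Ctla4 (321.6 and 170.6 CPM) stayed within 2-fold. Of 12 T cell identity genes, 0 were 2-fold higher and 2 lower, with a median of -0.33, the lower ones being the kinases Lck (358.1 and 164.0 CPM) and Zap70 (181.1 and 60.4 CPM). Trbc2 stood at 1000.5 and 1305 CPM and Cd3d at 683.8 and 785.3 CPM.
Of 9 partners and survival genes of the GIMAP proteins, 1 was 2-fold higher in lymph node T cells and 2 were lower, Bcl2 and Bcl2l1. Over all genes these shares were 4.61% and 26.0%. The higher gene was Map1lc3b, a core protein of autophagosomes (302.1 and 647.5 CPM). The median was -0.30. Gabarapl2, the autophagy protein that Gimap6 binds, stood at 130.7 and 136.8 CPM (log2 ratio 0.06), and its relative Gabarap at 306.2 and 202.8 CPM (-0.60). Bcl2, a survival protein, stood at 278.5 and 85.3 CPM (-1.71) and Bcl2l1, another, at 92.6 and 16.0 CPM (-2.53). Mcl1, also a survival protein, stood at 275.3 and 357.6 CPM, and the death protein Bcl2l11 at 349.2 and 248.3 CPM. Of 4 heat shock genes 1, Dnajb1, was 2-fold higher in the lymph node (89.3 and 208.2 CPM) and 0 were lower, with a median of 0.38 against -0.43 over all genes.

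The genes next to the block had few UMIs in T cells. Of the 5 protein-coding genes on each side, 2 passed the 10 CPM filter, Tmem176b (28.4 and 15.5 CPM) and Tmem176a (34.9 and 18.4 CPM), the next annotated protein-coding genes beyond Gimap3, and the other 8 had at most 31 UMIs in the T cells of either library. The Gimap members' own least abundant gene, Gimap7 in lymph node T cells, stood at 55.7 CPM, above all 10 neighbours.

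Across the 17 units of class and library with at least 20 cells, 10 genes outside the family were most like the summed Gimap level by Pearson's r of log2(CPM + 10), out of 8131 genes with a mean of at least 10 CPM. They were Ppp1r16b (0.87), Ppil2 (0.87), Slc4a1ap (0.86), Foxo1 (0.86), Rnf125 (0.85), Ppp1cc (0.85), Grap (0.84), Ubald2 (0.84), Mfng (0.84) and Elf1 (0.83). The units share 2 libraries and differ widely in depth, and 8 of the 10 genes were again among the leading 10 when classes needed 50 cells.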

How the data were processed

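The deposited files hold raw counts: whole UMI counts per gene and cell, which the authors made with Cell Ranger (version 2.1.1 in the submitters' processing notes, 5.0.0 in the file headers) against GRCm38. Cells with 201 to 6000 detected genes and at most 5% mitochondrial UMIs were kept. Scrublet marked 391 doublets in the primary tumour. It marked 0 in the lymph node, where the 616 cells above the 94th percentile of its score were removed instead. Cell cycle scores (Seurat 5.3.0 gene lists) were regressed out and both libraries clustered together (scanpy 1.11.5, Leiden resolution 1.0) without the Gimap genes and the genes of the lists. Clusters were named from markers, of which at least 3 had to be raised 2-fold, by a scoring rule set after the data were seen, and 219 and 206 cells stayed unnamed. The gate for high endothelial cells and the comparison of Gimap4 with Gimap6 were also chosen after seeing the data. For each class the UMIs of its cells were added up and divided by the class total (CPM). With 1 library per tissue no test was run. Intervals are 95% (Poisson, Clopper-Pearson, and for ratios exact for the split of both counts, with 0.5 added to each count for the ratio itself), and an undetected gene is given the limit of 3 counts. The ratio and Poisson intervals and the thinned share were tested on simulated counts, whereas the filters, clustering, class names and gates were not. The alternatives covered doublets, cell filters, clustering, the definition of T cells, scaling, thinning and the gates. The members, lists and named genes were chosen with earlier results of these data known. Named were the 8 members, up to 4 genes per list with highest CPM in lymph node T cells, the 10 most alike genes and the neighbours as counts. Bcl2, Bcl2l1, Gabarapl2, Lck, Zap70, Gm28053 and the markers were named in addition, after their values were seen, and Tmem176a and Tmem176b as the neighbours that passed the filter. No protein sequences were used here. 1 gene and the T cell gates that need it are not reported here.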

Additional observations from a re-analysis of the deposited data

Results flagged for a closer look

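Gimap6 differed in opposite directions between the libraries in T cells and in endothelial cells. Its log2 ratio of lymph node over primary tumour was 1.09 (0.93 to 1.27) in T cells and -1.30 (-1.62 to -0.95) in endothelial cells. Each ratio came from 1 library per tissue, and the difference between them was not tested. The median over all genes in the endothelial groups is not given here, so the endothelial ratio has no such baseline. The lymph node endothelial group may hold other cells: Cdh5 was found in 54.1% and Cldn5 in 1.03% of its 194 cells, against 98.0% and 76.5% of the 51 primary tumour cells.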

How the results depend on the processing

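No paired analysis was possible because each tissue had 1 library, and no library could be left out in turn for the same reason. Across 12 alternatives in T cells the log2 ratio of Gimap6 lay between 0.99 and 1.47, of Gimap4 between -1.36 and -0.85, of Gimap7 between -1.34 and -0.75, and of Gimap5 between -1.24 and -0.59. These 4 and Gimap9 held their direction in 12 of 12, Gimap1 and Gimap3 in 11 and Gimap8 in 10. Gimap3, about level in the main setting, stood at 0.37 with T cells by marker UMIs and 0.50 with T cell receptor scaling. The Gimap4 share of Gimap4 and Gimap6 UMIs lay between 59.7% and 68.2% in the primary tumour and between 27.8% and 28.7% in the lymph node over 11 alternatives.

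The summed T cell log2 ratio was -0.17 with a mitochondrial limit of 10%, 0.050 with T cells by marker UMIs and 0.28 scaled by T cell receptor genes, under which 0 members were 2-fold lower in the lymph node. As the mean of single-cell CPM, 0 members were 2-fold higher and 3 were 2-fold lower, with Gimap5 added at a log2 ratio of -1.07. Summed T cell CPM was 1870 in the primary tumour with the 10% limit, 1897 and 1966 in primary tumour and lymph node by marker UMIs, and 2118 and 1887 as the mean of single-cell CPM. That mean also gave 672.5 CPM in lymph node B cells, 1362 in primary tumour NK cells and 932.9 in primary tumour endothelial cells. It gave summed log2 ratios of -0.38 in CD8 and 0.029 in CD4 T cells. T cell receptor scaling gave 0.34 in CD8 and -1.36 in Foxp3 T cells. Clusters in place of gates gave -0.11 for CD8 and -0.46 for Foxp3 T cells. With no upper gene limit, endothelial cells held 891.8 and 255.4 CPM and lymph node cancer cells 26.5 CPM. Without heat shock cells primary tumour endothelial cells held 547.9 CPM. Primary tumour NK cells held 1298 CPM with the members and lists among the variable genes, and primary tumour cancer cells 10.7 CPM with doublets kept and 7.68 CPM with libraries clustered separately. The shares of T cells with a Gimap UMI were 60.4% and 55.7% thinned to 500 UMIs and 88.8% and 94.3% without thinning. In all, 30 recomputed summary values moved by more than counting error or, for counts, by more than 1.5 times. Those 30 are listed above. The other 133 recomputed summary values, the count of 3 included, moved by less. With genes from a mean of 1 CPM, 638 of 11105 genes were 2-fold higher and 3766 lower in lymph node T cells. The cause of these shifts was not tested. The 29 NK cells and 51 endothelial cells of the primary tumour limit what could be resolved there.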

Other observations

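Mast cells, set apart by at least 10 UMIs of their 3 markers, were too few for the comparisons. The 3 lymph node mast cells held 16 Gimap5 UMIs of 21 Gimap UMIs in all, and the 2 primary tumour mast cells held 2 Gimap5 UMIs of 2.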
